A study of Homo sapiens with 34 samples.

Results

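Peaks of ubiquitin and proteasome genes were taken by gene name from the 3 deposited lists of m6Am peaks in HEK293T cells. A peak was a member where its gene name began with UBE, USP, UBA, UBX, UBR, FBX, RNF, TRIM, KLHL, OTU, HERC or SKP, or with a cullin (CUL), COP9 signalosome (COPS) or proteasome (PSMA to PSMG) stem followed by a digit. The rule found 59 of the 2116 peaks, which carry 51 of the 1807 distinct gene names. There were 47 members among the 1652 peaks of the HEK293T list, 12 among the 390 peaks of the hypoxia list and 0 among the 74 peaks of the heat shock list. No measured value took part in the rule, so it also takes names that are not pathway proteins, such as the antisense RNA USP2-AS1.

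In m6Am-seq, fragments that carry the cap are pulled down through m7G, one portion is stripped of m6Am by the demethylase FTO, and an m6A antibody is applied to both portions, so that a peak that is lost after FTO treatment marks m6Am. The HEK293T list belongs to the 8 libraries of wild-type cells, a human embryonic kidney line transformed with adenoviral DNA that carries the simian virus large T antigen. The heat shock list (43 °C for 2 h, then 6 h of recovery) and the hypoxia list (1% oxygen for 24 h) belong to 7 libraries each, set against 7 libraries of untreated control cells that both stresses share. Each list gives 1 set of outer spans, with no replicate and no read depth, so the spread between replicates is unknown. The stress lists hold only peaks that were called as different from untreated cells, so absence from them does not mean that m6Am was absent. For each stress the paper counts more m6Am peaks than its list holds, so a called peak can also be missing. The direction of these calls was not used here, and higher and lower peaks may be mixed. The paper reports both kinds for each stress, and mostly higher m6Am peaks for hypoxia.

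Ubiquitin is activated by an E1 enzyme, passed to an E2 conjugating enzyme and placed on a substrate with the help of an E3 ligase, and deubiquitinases remove it again. Many E3 ligases are cullin-RING complexes, in which a cullin scaffold holds a RING protein and an exchangeable receptor such as an F-box or KLHL protein. Chains of ubiquitin direct many substrates to the proteasome, which joins a barrel-shaped 20S core with its peptidases to a 19S cap with a ring of ATPases. m6Am itself is placed by PCIF1 on capped transcripts whose first transcribed base is A.

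Of the 506 protein-coding genes that match the name rule in the annotation, 46 were in the HEK293T list, a share of 9.09% (95% Wilson interval 6.88 to 11.9%). The same share over all 20136 protein-coding genes was 7.30%, which lies inside that interval. In the hypoxia list the rule met 12 of the 506 genes, or 2.37% (1.36 to 4.1%), beside 1.81% of all protein-coding genes. The heat shock list held 0 of the 506 (0 to 0.753%), beside 0.338% of all protein-coding genes. In each list the share of all protein-coding genes lay inside the interval of the pathway, whereas the shares of single roles ranged widely. The lists do not report expression, so whether an unlisted gene was transcribed at all was not tested.

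**Figure D1:**
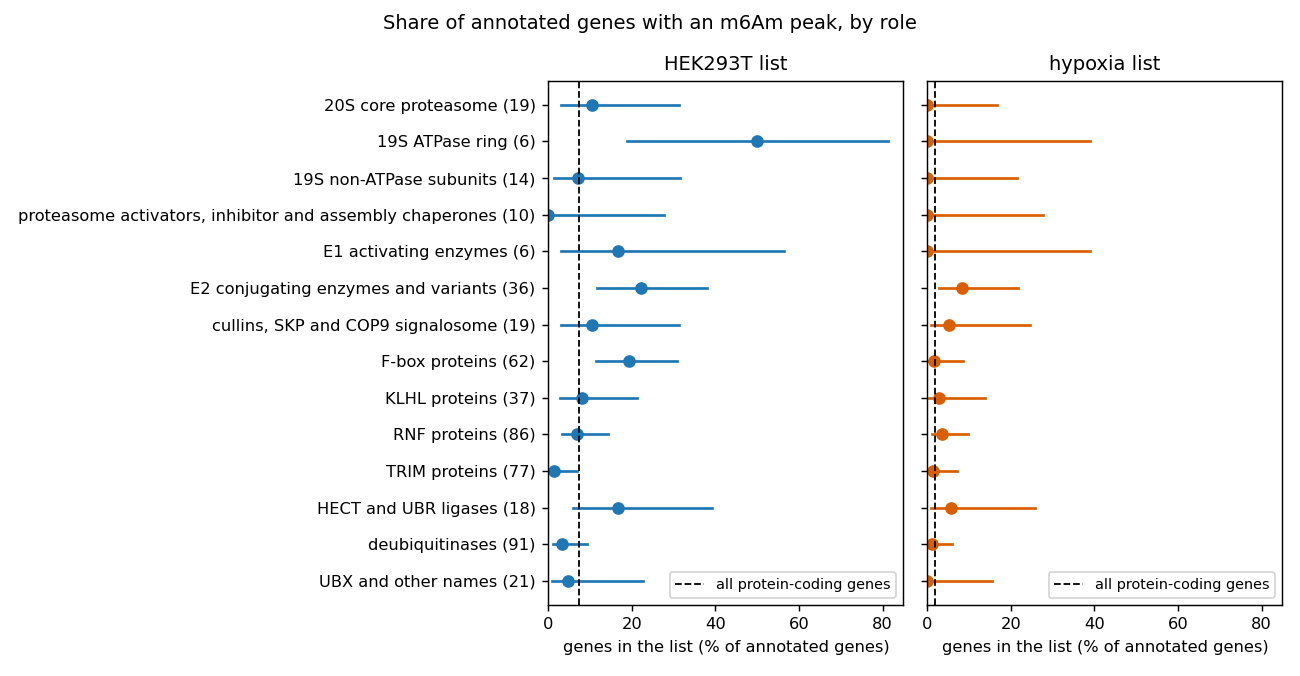
Share of annotated protein-coding genes of each role that is named in the HEK293T list (left) and in the hypoxia list (right), in percent; points are shares, lines are 95% Wilson intervals, the number of annotated genes is in brackets and the dashed line is the share of all protein-coding genes. In the HEK293T list the 19S ATPase ring, the E2 enzymes and the F-box proteins have intervals above the dashed line at 7.30%, and the TRIM proteins have an interval below it. In the hypoxia list the interval of the E2 enzymes lies above the dashed line at 1.81%. The intervals were not adjusted for the number of roles, so some can miss the dashed line through counting error alone.

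Proteasome genes were listed for 6 of 49 annotated subunits and factors, or 12.2% (5.73 to 24.2%), all of them in the HEK293T list, beside 7.30% of all protein-coding genes. In neither stress list was there a proteasome gene, with an upper Wilson bound of 7.27% each, which includes the shares over all protein-coding genes (1.81% for hypoxia and 0.338% for heat shock). The 20S core accounted for 2 of 19 genes and the 19S ATPase ring for 3 of 6. The 19S non-ATPase subunits accounted for 1 of 14, and the activators, inhibitor and assembly chaperones for 0 of 10. The ATPase ring, the part of the cap that unfolds substrates, thus gave 3 of the 6 listed proteasome genes, and with 6 annotated genes the interval of its share is wide (18.8 to 81.2%).

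PSMB5, the core subunit with the chymotrypsin-like activity, had a span of 360 bp at chr14:23503935-23504294 (GRCh37, minus strand). Its 5′ edge lay 145 bp downstream of the nearest annotated transcription start site (TSS), and 156 bp of the span were coding. PSMB1, another beta subunit of the core, had a span of 4224 bp at chr6:170858194-170862417 on the minus strand, of which 1514 bp were exonic. The core subunits thus differed in the length of the span, and both spans included an annotated start and part of an intron.

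The ATPase PSMC3 had a span of 1322 bp at chr11:47446703-47448024, and its 5′ edge coincided with an annotated TSS. PSMC1 had a span of 6814 bp at chr14:90722894-90729707, with the edge 3 bp upstream of a TSS. PSMC2 had a span of 7288 bp at chr7:102988031-102995318, with the edge 52 bp upstream of a TSS. All 3 spans of the ring reached coding sequence, by 342 bp, 200 bp and 112 bp in that order. PSMD2, the large cap subunit to which ubiquitin shuttles and USP14 dock, had a span of 750 bp at chr3:184016916-184017665, of which 204 bp were coding.

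Because m6Am needs an A at the first transcribed base, the sequence around the annotated start is shown for 4 of the 5 proteasome members whose edge lay within 100 bp of it; PSMB1, with the edge 22 bp upstream of a start, is not shown. Each window of 30 bases runs 5′ to 3′ on the strand of the gene (GRCh37). The capitals mark the first base at the annotated start nearest to the edge and the 2 bases before it.
PSMC3 (chr11:47448010-47448039, minus strand): gcgggggcggggcCTGtggccaggggttgg
PSMC1 (chr14:90722882-90722911, plus strand): ctggcgggccgcaGTGgtggaggaacttcc
PSMC2 (chr7:102988068-102988097, plus strand): ttccggtggggaaGGGaaagggaagacacc
PSMD2 (chr3:184016971-184017000, plus strand): ccgcgaccgacgcGCGcgagttggtctggg
In all 4 windows the annotated first base was G, so the annotated start nearest to the edge was not an A. The spans held between 3 and 12 annotated starts each, and the lists do not say which of them the modified transcripts used. The study also called m6Am at single bases, and those sites were not used here. The paper reports that most of them lay downstream of RefSeq starts, so the marked base need not be the modified one.

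Among the E1 enzymes 1 of 6 genes was listed, or 16.7% (3.01 to 56.4%), an interval that includes the 7.30% of all protein-coding genes. UBA3, the catalytic subunit of the enzyme that activates the ubiquitin-like protein NEDD8 for the cullins, had a span of 2535 bp at chr3:69126990-69129524 on the minus strand. Its 5′ edge lay 4 bp downstream of an annotated start, whose first base is an A after GC.
UBA3 (chr3:69129514-69129543, minus strand): ctgccgcgcgtggGCAcctgggaagaggcg

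E2 conjugating enzymes and variants were listed for 8 of 36 genes in the HEK293T list, or 22.2% (11.7 to 38.1%), beside 7.30% of all protein-coding genes. In the hypoxia list they gave 3 of 36, or 8.33% (2.87 to 21.8%), beside 1.81%. Their HEK293T spans fell into a short set of 239 to 598 bp and a long set of 24451 to 72079 bp, with none between.

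The short E2 spans belonged to UBE2A, UBE2H and UBE2M. UBE2A, which acts with the ligase RAD18 in DNA damage tolerance, had 239 bp at chrX:118708430-118708668, and 189 bp of it were coding. UBE2H had 271 bp at chr7:129592530-129592800, all of it exonic and none of it coding. UBE2M, which passes NEDD8 to cullins, had 598 bp at chr19:59069746-59070343 with 3 coding bp.

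The long E2 spans belonged to UBE2G2, UBE2N, UBE2K, UBE2V1 and UBE2L3. UBE2G2, an E2 of endoplasmic reticulum quality control, had 24451 bp at chr21:46197301-46221751. UBE2N, which builds lysine-linked chains together with UBE2V1, had 31090 bp at chr12:93804937-93836026, and 466 bp of it were exonic. UBE2K had 39388 bp at chr4:39699694-39739081, with 324 exonic bp. UBE2V1 and UBE2L3 had 43967 bp at chr20:48700683-48744649 and 72079 bp at chr22:21903915-21975993. The exonic part of these 5 spans was 324 to 2574 bp, and the intronic part was 22598 to 70641 bp. In UBE2V1 a further 12153 bp lay outside the gene.

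Starts are shown for 4 of the 5 E2 members with an edge within 100 bp, to compare their first bases.
UBE2A (chrX:118708484-118708513, plus strand): gttcagcccccgtCTAcactggggtggtgc
UBE2M (chr19:59070307-59070336, minus strand): caacgcaggccggGCGggaagagccaaagc
UBE2G2 (chr21:46221727-46221756, minus strand): ccgcgacggtggcCCGgaagcagtccccgg
UBE2K (chr4:39699714-39699743, plus strand): ccgcccggccgggTCAacgtcgtgcgcatg
UBE2A and UBE2K start with A in these windows, and UBE2M and UBE2G2 with G. UBE2H, which is not shown, has its edge at a start with A, so 3 of these 5 starts were A.

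The cullin, SKP and COP9 signalosome group had 2 listed genes of 19, both cullins. Their share of 10.5% (2.94 to 31.4%) has an interval that includes the 7.30% of all protein-coding genes. CUL3, the scaffold for KLHL and other BTB receptors, had a span of 360 bp at chr2:225449755-225450114, all exonic, non-coding and beginning at an annotated start. CUL4B, the scaffold of the DDB1-based ligases, had 15063 bp at chrX:119694353-119709415, and its edge lay 36 bp upstream of a start. The first bases at these starts were T and C.
CUL3 (chr2:225450100-225450129, minus strand): ctgggccggatctCGTctcgctcaggcgga
CUL4B (chrX:119709365-119709394, minus strand): cctcggcgggcagAACctagcccgccgaaa

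F-box proteins, the receptors of SKP-cullin ligases, were the most numerous role, with 12 of 62 genes or 19.4% (11.4 to 30.9%), beside 7.30% of all protein-coding genes. Among the listed genes were FBXW4, FBXW7, FBXO3, FBXO16, FBXO17, FBXO25, FBXO30, FBXO32, FBXO33, FBXO38 and FBXO46. They include the receptor for cyclin E and MYC (FBXW7) and the muscle atrophy gene FBXO32. Their spans ran from 181 bp for FBXO32 to 25489 bp for FBXO17, with a median of 5889.5 bp. In 9 of the 12 the span included an annotated TSS of the gene, beside 94.5% of all HEK293T peaks with a gene model. The spans of FBXO30, FBXO33 and FBXW4 did not include one. Those 3 edges lay 10 bp, 202 bp and 184 bp downstream of the nearest start.

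KLHL proteins, the BTB receptors of CUL3, were listed for 3 of 37 genes, KLHL13, KLHL20 and KLHL32, with spans of 240 to 18840 bp. Their share of 8.11% (2.80 to 21.3%) was near the 7.30% of all protein-coding genes. RNF proteins, mostly RING-type ligases, were listed for 6 of 86 genes, RNF6, RNF139, RNF145, RNF146, RNF150 and RNF169. Their share of 6.98% (3.24 to 14.4%) was near that background too. Their spans were 151 to 19889 bp, and 4 of the 6 were at most 1000 bp. TRIM proteins, many of them ligases of innate immunity, were listed for 1 of 77 genes, or 1.30% (0.230 to 7.0%), beside 7.30%. That gene was TRIM56, with a span of 1674 bp. Large ligases of the HECT and UBR kind were listed for 3 of 18 genes, HERC3, HERC4 and the N-degron ligase UBR1, with spans of 2313 to 19941 bp. Their share was 16.7% (5.84 to 39.2%), and its interval includes 7.30%.

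Deubiquitinases were listed for 3 of 91 genes, or 3.30% (1.13 to 9.25%). The annotation counts 26 near-identical USP17L copies among them, and without these the share was 3 of 65, or 4.62% (1.58 to 12.7%). Both intervals include the 7.30% of all protein-coding genes. USP11 had a span of 270 bp at chrX:47092314-47092583, all of it coding. USP32 had 330 bp at chr17:58469257-58469586, with the edge 5 bp downstream of a start. USP14, which trims chains on the proteasome cap, had 4893 bp at chr18:158483-163375. The remaining members were UBXN6, a cofactor of the segregase VCP, with 3773 bp, and the antisense RNA USP2-AS1, with 13280 bp.

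**Figure D2:**
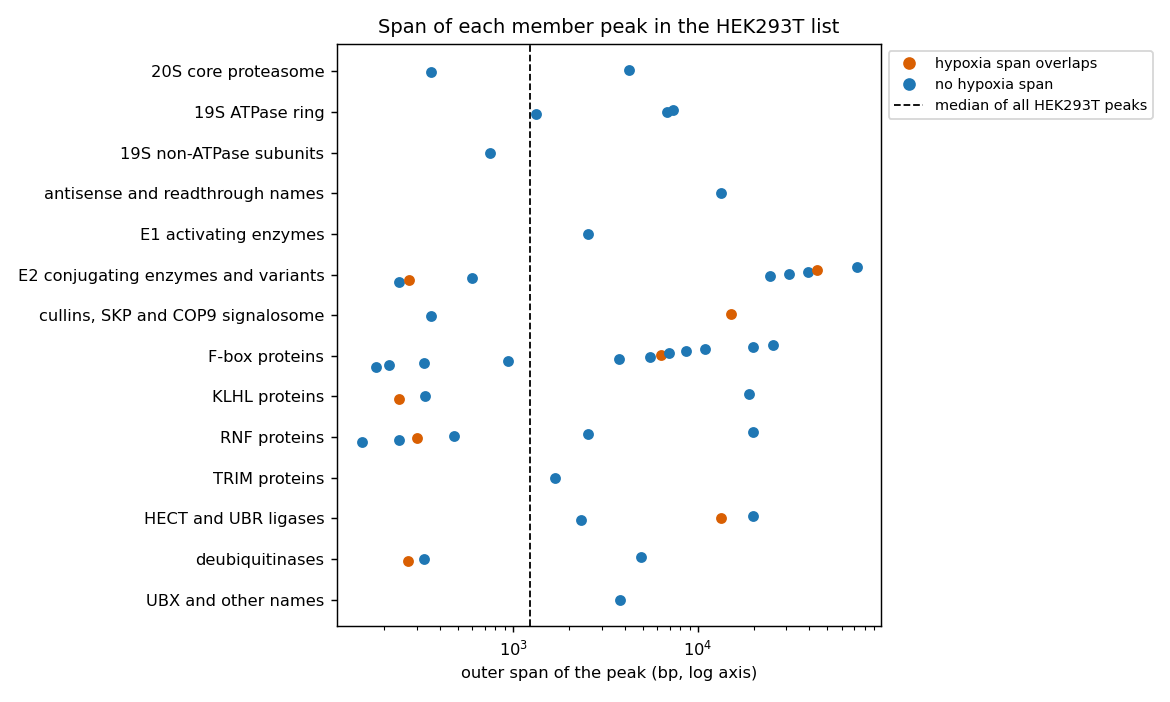
Outer span of each of the 47 member peaks of the HEK293T list, in bp on a log axis, by role; orange points are members that a hypoxia span overlaps, blue points are the others, points of a role are shifted vertically to be seen, and the dashed line is the median of all HEK293T peaks (1228.5 bp). The E2 enzymes split into a set of 239 to 598 bp and a set of 24451 to 72079 bp.

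Hypoxia spans overlapped 8 of the 47 HEK293T members by at least 1 bp, or 17.0% (8.89 to 30.1%). Over all HEK293T peaks 13.5% were overlapped by a hypoxia span, which lies inside that interval. Seen from the hypoxia list, 8 of its 12 members (66.7%, 39.1 to 86.2%) overlapped a HEK293T span, beside 56.4% of all 390 hypoxia peaks. The shared genes were UBE2H, UBE2V1, CUL4B, FBXO25, KLHL13, RNF139, HERC3 and USP11, so they came from E2 enzymes, a cullin, receptors, ligases and a deubiquitinase.

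UBE2H, FBXO25 and RNF139 had the same start and end in both lists, with spans of 271 bp, 6306 bp (chr8:356868-363173) and 299 bp (chr8:125487008-125487306). KLHL13 kept its 5′ edge, with 240 bp at chrX:117250589-117250828 in HEK293T cells and 269 bp at chrX:117250560-117250828 in the hypoxia list. USP11 likewise kept its 5′ edge, and its span was 300 bp at chrX:47092314-47092613 in the hypoxia list. These 5 genes thus differed between the lists by at most 30 bp at 1 edge.

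In HERC3 the 5′ edge was the same and the 3′ edge was not. Its span was 13373 bp at chr4:89513574-89526946 in HEK293T cells and 3191 bp at chr4:89513574-89516764 in the hypoxia list. UBE2V1 differed at the other end, with a hypoxia span of 31500 bp at chr20:48700698-48732197 whose 5′ edge lay 12452 bp downstream of the HEK293T edge. The HEK293T span of UBE2V1 touched 3 protein-coding genes and began 12153 bp upstream of the first annotated start of UBE2V1 itself, whereas the hypoxia edge lay 289 bp downstream of a start.

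CUL4B shared the smallest percentage of its HEK293T span. Its hypoxia span was 540 bp at chrX:119694278-119694817, and 465 bp of it were shared with the HEK293T span, which is 3.09% of the latter and 86.1% of the former. The hypoxia edge coincided with an annotated start that lies 14598 bp downstream of the HEK293T edge. That start differs from the one nearest to the HEK293T edge, and its first base is A after AC. Both edges depend on the calls in 1 list each, and whether the start in use differed between the conditions was not tested.
CUL4B, start at the hypoxia edge (chrX:119694803-119694832, minus strand): gagctgcagcctcACAgactcgctgagtcg

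Of all 209 pairs of HEK293T and hypoxia spans with a gene model, 74.6% shared the 5′ edge and 20.1% shared both edges. Among the 8 member pairs the 5′ edge was shared in 6 and both edges in 3 (37.5%).

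**Figure D3:**
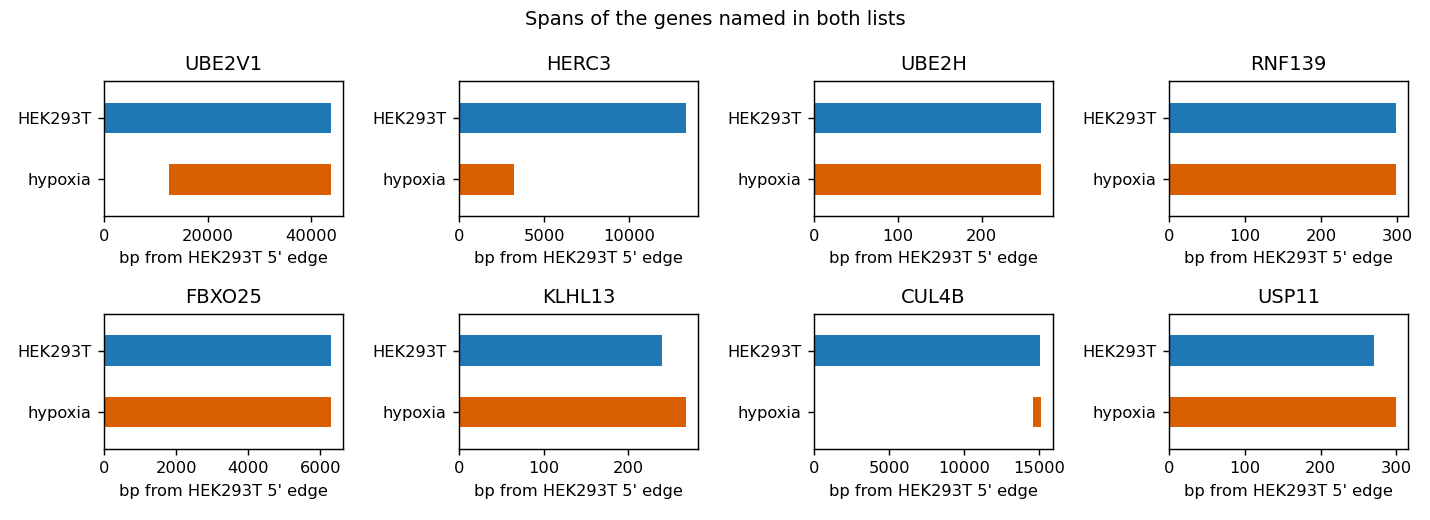
Outer spans of the 8 genes that both lists name, in bp from the 5′ edge of the HEK293T span along the transcript, with a separate axis for each gene; blue bars are HEK293T spans and orange bars hypoxia spans. Spans are the same in UBE2H, RNF139 and FBXO25, and the hypoxia span of CUL4B covers 3.09% of the HEK293T span, at its 3′ end.

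Starts of 4 other hypoxia members within 100 bp of an edge are shown because these genes are in a stress list. HERC3, KLHL13 and USP11 have the same nearest start in both lists.
HERC3 (chr4:89513570-89513599, plus strand): gcccggtgcgaagCCAttcacccagcgcat
KLHL13 (chrX:117250759-117250788, minus strand): ctcagcagcccccCCAcaccctggtgaggt
USP11 (chrX:47092250-47092279, plus strand): ttcccactgaagaTTTtaccccacctagcc
TRIM23 (chr5:64920173-64920202, minus strand): gtgcgccggtggcGTGcgcagaggcctctg
At the annotated start nearest to the edge, HERC3 and KLHL13 have A after CC, whereas USP11 has T and TRIM23 has G. UBE2H, RNF185 and FBXO25 also had a start within 100 bp of the edge and are not shown. The first base there was A in UBE2H and RNF185 and G in FBXO25. Where any start in the span was allowed, 11 of the 11 hypoxia members with one had a start with A (74.1 to 100%), beside 82.0% of all hypoxia peaks with one.

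The hypoxia list named 4 genes that the HEK293T list did not. UBE2R2, an E2 of the SKP-cullin ligases, had 180 exonic and non-coding bp at chr9:33817541-33817720. Its span did not include an annotated start, and its edge lay 383 bp downstream of the nearest one. TRIM23, a ligase with a GTPase domain of the ARF kind, had 6119 bp at chr5:64914069-64920187, beginning at an annotated start. RNF185, a ligase of the endoplasmic reticulum, had 26982 bp at chr22:31556138-31583119. The span of RNF103, also a ligase of that membrane, covered 158932 bp at chr2:86756449-86915380 and 3 protein-coding genes, so its assignment to RNF103 rests on the deposited name. Its edge lay 64391 bp upstream of the nearest RNF103 start.

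No member was in the heat shock list, and no heat shock span overlapped any of the 47 HEK293T members (0 to 7.56%). The deposited list is shorter than the paper's count of heat shock m6Am peaks, so these values describe that list alone. Over all HEK293T peaks 2.54% were overlapped by a heat shock span. With 74 peaks in that list, the Wilson interval for the share of members runs to 4.93%, which includes the 2.85% seen in the HEK293T list and the 3.08% in the hypoxia list. A difference between the stresses was therefore not detectable from these counts.

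The median outer span of members was 3742 bp (750 to 6963 bp, 95% interval from order statistics), beside 1228.5 bp over all HEK293T peaks, which lies inside that interval. The lower quartiles were 345.5 bp and 272.5 bp. The member spans, from 151 to 72079 bp, lay within the range of all peaks, from 60 to 550637 bp. Spans of at most 1000 bp made up 38.3% of members (25.8 to 52.6%) and 47.3% of all peaks. The exonic part was shorter, with a median of 466 bp in members and 355 bp over all peaks with a gene model. The intronic part had a median of 2005 bp in members, beside 217 bp. Bases outside the named gene were present in 16 of 47 member spans (34.0%, 22.2 to 48.3%), beside 36.6%.

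**Figure D4:**
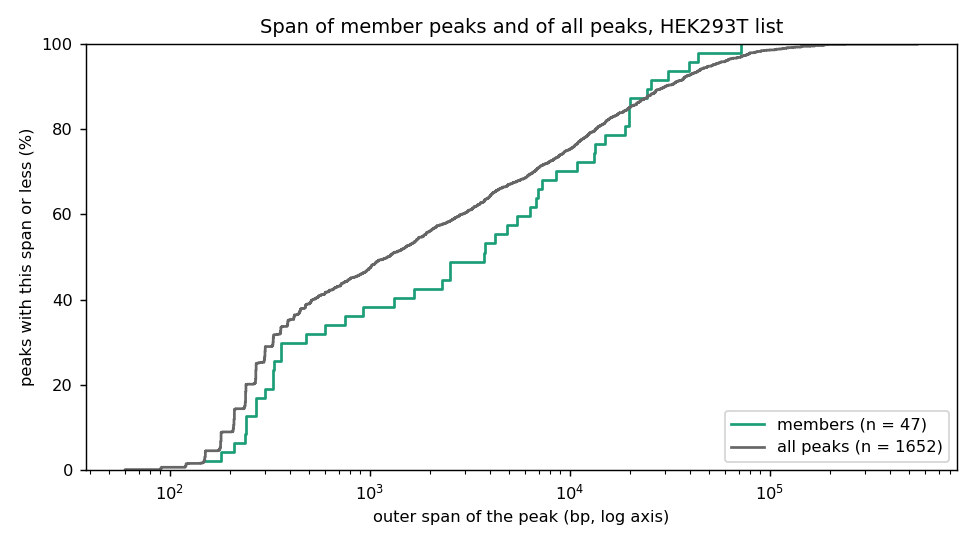
Cumulative share of peaks, in percent, by outer span in bp on a log axis, for the 47 member peaks and all 1652 peaks of the HEK293T list. The member curve lies to the right through the middle of the range, with medians of 3742 bp and 1228.5 bp.

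Most member spans covered the start of their gene. In 43 of 47 (91.5%, 80.1 to 96.6%) the span included an annotated TSS, beside 94.5% of the 1557 peaks with a gene model. A TSS was found at most 100 bp from the 5′ edge for 39 of 47 (83.0%, 69.9 to 91.1%), beside 82.2%. Coding sequence was reached by 72.3% of member spans (58.2 to 83.1%) and 63.1% of all.

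At the TSS nearest to the 5′ edge the first base was A in 16 of 47 members, or 34.0% (22.2 to 48.3%). Over all HEK293T peaks with a gene model it was A in 45.3%, which lies inside that interval, and over all 146567 annotated starts of protein-coding genes in 32.5%. G was the more frequent first base in members, with 44.7% (31.4 to 58.8%), beside 35.3% over all peaks. In the hypoxia list the order was the other way, with A in 7 of 12 members (58.3%, 32.0 to 80.7%) beside 42.6% of all hypoxia peaks with a gene model, and G in 3 of 12 (8.89 to 53.2%) beside 39.1%. For A and G the shares over all peaks lay inside the intervals of the members in both lists. T was the first base in 2 of 12 hypoxia members (16.7%, 4.70 to 44.8%), beside 4.31% of all, which lies below that interval. In RNF103, 1 of these 2, the start lay 64391 bp from the edge. Among starts within 100 bp of the edge T was the first base in 1 of 8 (12.5%, 2.24 to 47.1%), beside 3.33%, which lies inside that interval. Of the 16 A starts in the HEK293T list, 11 followed the pattern CCA, GCA or TCA (68.8%, 44.4 to 85.8%), beside 61.8% over all peaks. Where any TSS in the span was allowed, 81.4% of the 43 members with one had a start with A, beside 81.3% of all, so the first base by the nearest start does not say that a member lacks an A start.

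A further feature that the rule did not use was the neighbour on the other strand. A protein-coding start on the opposite strand within 1000 bp was found for 3 of 47 (6.38%, 2.19 to 17.2%), beside 22.9% of all peaks with a gene model. These were PSMB1 with TBP at 995 bp, USP32 with CHCT1 at 199 bp and USP2-AS1 with USP2 at 67 bp. In the hypoxia list it was found for 1 of 12 members, TRIM23 (8.33%, 1.49 to 35.4%). The share of all hypoxia peaks with a gene model was 21.6%, which lies inside that interval. The comparisons describe these lists of names and were not tested.

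Other genes of the pathway, whose names the rule does not take, were followed through a list of 83 genes put together by hand, which is not complete. Of these, 12 of 83 were in the HEK293T list, or 14.5% (8.47 to 23.6%), beside 7.30% of all protein-coding genes. Because the genes were picked by hand, these shares describe that list and not the rest of the pathway. The hypoxia list held 2 of them, or 2.41% (0.663 to 8.37%), beside 1.81%. The heat shock list held 1, or 1.20% (0.213 to 6.51%), beside 0.338%. Shuttles, the VCP pathway and regulators of proteasome genes gave 4 of 14 in the HEK293T list (11.7 to 54.6%). These were FAF2 and the ubiquilins UBQLN1, UBQLN2 and UBQLN4, and the ubiquilin spans were 180 to 418 bp. NEDD8 and cullin-RING partners gave 3 of 15 (7.05 to 45.2%), ELOC, CRBN and DCUN1D1. Other ligases gave 4 of 32 (4.97 to 28.1%), XIAP, ITCH, SMURF2 and CDC27, and the small cap subunit SEM1 was the single further proteasome gene of 6 (3.01 to 56.4%). Ubiquitin genes gave 0 of 5 (0 to 43.4%), and the 11 deubiquitinases of other families on that list gave 0 (0 to 25.9%). Outside it, the deubiquitinases MYSM1 and MINDY3 were in the HEK293T list, with spans of 7185 bp and 240 bp; they were picked after their values were seen. In the hypoxia list were BTRC, an F-box protein under another name, and ANAPC5 of the anaphase-promoting complex. ELOC, an adaptor of cullin-RING ligases, was the 1 gene of the 83 in the heat shock list, with a span of 16353 bp there and 16306 bp in the HEK293T list.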

How the data were processed

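The 34 libraries of HEK293T cells were grouped by their labels. The authors trimmed the reads with Trim Galore 0.6.6, aligned them to hg19, called peaks with exomePeak and MACS2 and kept those that overlapped an m7G-IP peak. They called m6Am where the ratio of FTO (-) to FTO (+) was above 2, and stress peaks where stressed and untreated cells differed by more than 2. How replicates were combined is not given in the sources used here. The deposited lists hold chromosome, start and end positions in bp and a gene name for each peak. Both stress lists also hold a fold column of stressed against untreated cells, which is the authors' own comparison and was not used, so no size of a stress change is given. Libraries of PCIF1-KO cells and the CAGE library were not used here.

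Spans were matched to Gencode release 44 on GRCh37 by gene name, with older symbols from the RefSeq gene table, which placed 1557 of the 1652 HEK293T peaks in a gene of their name. Where a name has several gene records (HERC3), the record with the start nearest to the 5′ edge was used, a choice made after its values were seen. Positions were read as 1-based, since 244 spans began exactly where an annotated exon does and 20 began 1 base earlier. Overlap was counted from 1 bp. Shares have 95% Wilson intervals, which cover counting error only; read depth is unknown. No test was run. Overlap and nearest-start functions were checked on simulated data. Sequences were read with samtools 1.23.1 and pyfaidx 0.9.0.4, intervals came from SciPy 1.17.1 and plots from Matplotlib 3.10.9, under Python 3.11.15 with NumPy 2.4.6.

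The members and lists were chosen with earlier results of these data known. The patterns that sort names into roles were corrected after the lists were read: PSMC3IP, a recombination factor with a similar name, was moved out of the 19S ATPase ring, and a pattern for pseudogene names that also took coding genes was dropped. Named were all members in a stress list, all proteasome, E1, E2, cullin and deubiquitinase members with their spans, and the others within their role, apart from an item that is not reported here. Start sequences were printed for proteasome, E1, E2, cullin and hypoxia members whose start lay within 100 bp of the edge and that the RefSeq promoter table also holds.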

Additional observations from a re-analysis of the deposited data

How the results depend on the processing

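The number of members in the HEK293T list was 47 peaks or 47 distinct names, and 46 without antisense, readthrough and pseudogene names. Counted over genes of every biotype, the share of annotated ubiquitin and proteasome genes in that list was 5.80% in place of 9.09%, because pseudogenes and other non-coding names enter the denominator; by overlap in place of name it was 9.68%. The same shares over all genes were 2.53% for every biotype, 7.30% for protein-coding genes by name and 9.07% by overlap. The gap was thus wider for every biotype than for protein-coding genes, and no interval is given for it. Of the 8 members with a hypoxia span, 8 remained by gene name, 6 (12.8%) with at least 50% of both spans and 3 (6.38%, 2.19 to 17.2%) with identical edges; over all HEK293T peaks these rules gave 13.4%, 10.8% and 2.60%. The median span was 3742 bp, and 466 bp when the exonic part alone was measured, since introns and bases outside the gene were left out. The share of starts with A was 34.0% at the nearest start, 41.3% for protein-coding transcripts, 81.4% when any start in the span was allowed, which gives most genes several chances, and 30.8% for starts within 100 bp of the edge. The last setting, and the use of the longer HERC3 record (89.4% of spans with a start in place of 91.5%), were chosen after seeing the data.

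No paired analysis was possible because each list holds 1 set of peaks per condition, with no replicate and no test. For the same reason leaving out replicates was not run. Depth and the precision of single peaks are unknown. A stricter peak threshold was not run: the HEK293T list holds no score per peak, and the fold column of the stress lists was left unused by choice.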

Other observations

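Promoter sequences from RefSeq (GRCh38.p14, 250 bases before to 50 after each gene's start) were found for 37 of the 47 HEK293T members, which is below 80%, so a comparison of motif shares between members and other genes is void. USP2-AS1, FBXO3, FBXO33, PSMB1, UBE2H, FBXO32, RNF139, FBXO16 and FBXO25 were among those with no entry. Among the annotated proteasome genes, 43 of 49 had an entry. Of 6 motifs searched on both strands, CCGGAAG was in 16 of these 43 promoters (37.2%), beside 10.5% of all 27305 promoters of the table and 18.8% of those of coding genes in the HEK293T list. TGACNNNGC was in 14 of the 43 (32.6%), beside 13.4% of all and 14.6% of those in the HEK293T list. Of the 5 proteasome members of that list with an entry, 2 had CCGGAAG and 0 had TGACNNNGC. GGGCGG was in 67.4% beside 43.4% of all and 66.7% of those in the HEK293T list, CCAAT in 44.2% beside 35.4% and 39.2%, ACGTG in 23.3% beside 21.2% and 26.8%, and TATAAA in 9.30% beside 12.3% and 6.20%. A match describes letters in the window and no binding.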
